A study of Mus musculus with 12 samples.

Results

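A set of 10 genes of the endoplasmic reticulum (ER) folding machinery was followed in a mouse model of pre-B acute lymphoblastic leukemia: Hspa5, Hsp90b1, Calr, Canx, Pdia3, Pdia4, Pdia6, Dnajb9, Herpud1 and the transcription factor gene Xbp1. They were taken by symbol from a table of 23224 genes, and all 10 were among the 12335 genes that passed the filter on low counts and were tested. The cells of every group were C57BL/6J pre-B leukemia cells transformed with BCR-ABL1 and null for p19. In 3 libraries Phf6 was wild type (WT), in 3 it was targeted by an shRNA (KD), and in 6 it was labelled null after use of 1 of 2 single guide RNAs (KO_sg1 and KO_sg4, 3 libraries each). The labels do not say whether a group was a clone or a pool, nor whether its 3 libraries came from separate cultures, so the p-values reflect variation among libraries that could be technical.

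Proteins that enter the ER are folded by ATP-driven chaperones, by lectin chaperones that hold glycoproteins, and by isomerases that form and exchange disulfide bonds. When unfolded protein accumulates, the membrane sensors IRE1, ATF6 and PERK are activated: IRE1 splices Xbp1 mRNA so that it codes an active factor, cleaved ATF6 enters the nucleus, and PERK phosphorylates eIF2α, which raises translation of ATF4. In B-lineage cells XBP1 is best known for its part in plasma cell secretion. The counts are per gene and do not separate spliced from unspliced Xbp1 mRNA.

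The promoters are shown first because the ER stress response element (ERSE) was defined in genes of this kind. The letters searched were CCAAT and CCACG with 9 bases of any kind between them for ERSE, ATTGG and CCACG with 1 base between them for ERSE-II, and TGACGTG for the core of the unfolded protein response element (UPRE), on both strands of the 250 bases before each RefSeq transcript start (GRCm38.p6). ERSE was in 5 of the 10 genes and in 37 of 32851 RefSeq windows (0.113%), and the only window with more than 1 match was that of Hsp90b1. ERSE-II was in Herpud1 and in 0.0304% of windows, and the UPRE core was in Hspa5 and in 1.65% of windows. Matched letters are in capitals below with 10 bases on each side, 5′ to 3′ on the strand of the gene, so that a match on the opposite strand reads as its reverse complement.
Hspa5, ERSE, chr2:34772015-34772053, plus strand: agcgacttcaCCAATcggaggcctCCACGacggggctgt
Hspa5, UPRE core, chr2:34771923-34771949, plus strand: ggcgtagcaaTGACGTGagttgcggag
Hsp90b1, ERSE, chr10:86705628-86705666, minus strand: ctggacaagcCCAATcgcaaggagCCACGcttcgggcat
Hsp90b1, ERSE on the opposite strand, chr10:86705523-86705561, minus strand: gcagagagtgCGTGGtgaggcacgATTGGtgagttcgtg
Calr, ERSE on the opposite strand, chr8:84847065-84847103, minus strand: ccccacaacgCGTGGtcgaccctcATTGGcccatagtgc
Canx, ERSE, chr11:50325790-50325828, minus strand: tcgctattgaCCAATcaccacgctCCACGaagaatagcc
Pdia6, ERSE, chr12:17266481-17266519, plus strand: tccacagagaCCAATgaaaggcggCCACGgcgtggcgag
Herpud1, ERSE-II, chr8:94386367-94386397, plus strand: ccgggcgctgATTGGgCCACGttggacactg

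The match nearest to a start was that of Herpud1, which began 52 bases upstream, followed by the ERSE of Hspa5 at 65 bases and that of Pdia6 at 98 bases. The windows of Pdia3, Pdia4, Dnajb9 and Xbp1 held none of the 3 elements in these exact letters. A match is a description of the sequence and does not show binding.

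**Figure D1:**
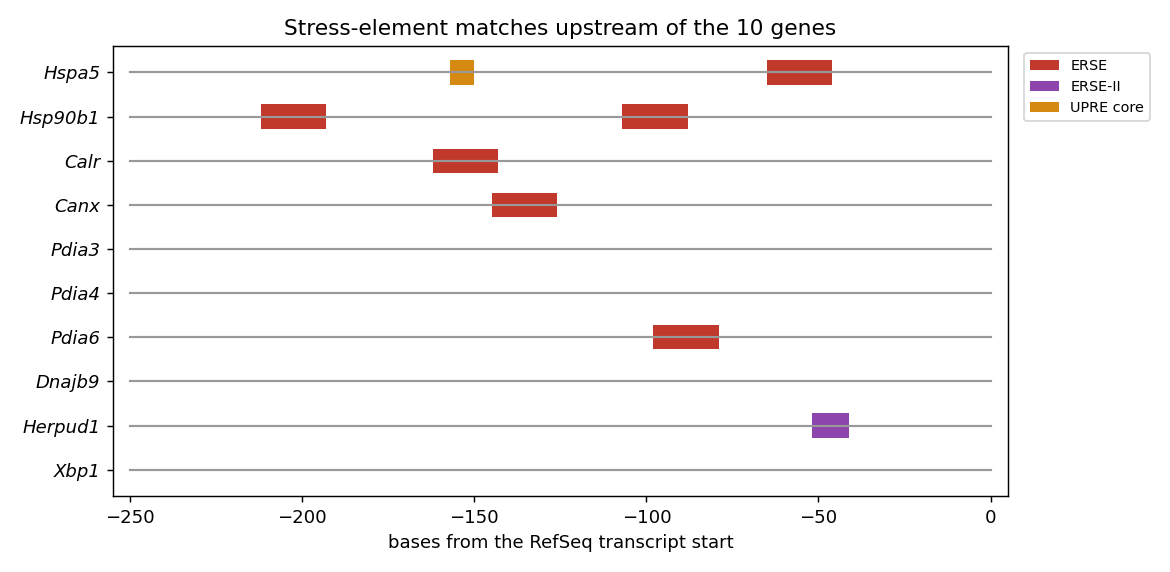
Matches to ERSE, ERSE-II and the UPRE core (coloured blocks) in the 250 bases upstream of the RefSeq transcript start of each of the 10 genes, with distance from the start in bases on the x axis. Matches are seen for 6 of the 10 genes, and Hsp90b1 has 2 ERSE blocks.

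Library totals ran from 20382328 to 36032369 estimated counts. Phf6 mRNA averaged 34.5 ± 0.752 CPM (counts scaled to a common library size with TMM factors) in WT, 8.78 ± 0.428 in KD and 3.40 ± 0.288 in KO_sg1 (SD, n = 3 each). In KO_sg4 it ran from 29.5 to 44.2 CPM, within reach of WT (log2 fold change 0.09 ± 0.11, adjusted p = 0.5275, edgeR), and a transcript level does not show whether the coding sequence was edited. Transcripts of Ddx3y, Kdm5d and Uty, which are Y-linked, summed to 74.7 to 86.0 CPM in WT and 113 to 120 in KD but to 0.0331 to 0.143 in the KO libraries. Both KO groups thus differed from WT and KD in these transcripts as well as in the guide. In every comparison of KO with WT or KD, an effect of the guides cannot be told apart from other differences between the cells. Pre-B markers were abundant in every library, as the label asks: the 9 genes summed to 6154 to 6560 CPM in WT, 4924 to 6593 across both KO groups and 14400 to 14930 in KD.

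Most of the 10 genes were strongly expressed. Divided by transcript length, WT levels were highest for Calr at 307 ± 9.81 CPM per kilobase, Hsp90b1 at 237 ± 3.06 and Pdia3 at 153 ± 2.94 (SD, n = 3). Herpud1 at 137 ± 3.44, Pdia6 at 134 ± 2.53 and Hspa5 at 129 ± 2.16 came next. The SD range of Pdia6 overlapped that of Herpud1 and that of Hspa5. Canx followed at 116 ± 3.83, Pdia4 at 70.0 ± 2.76 and Xbp1 at 46.0 ± 1.48, and Dnajb9 was lowest at 3.40 ± 0.171 CPM per kilobase. Together the 10 genes took 0.343 to 0.352% of the WT library totals, 0.997 to 1.04% of the KD totals and 0.379 to 0.441% of the KO totals.

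All 10 genes were higher in KD than in WT, against a background of 37.2% of all tested genes called higher and 40.4% called lower. The log2 fold changes ran from 1.09 for Xbp1 to 1.53 for Hspa5, with a median of 1.38 for the 10 genes and -0.01 for all tested genes. No KD library overlapped a WT library for any of the 10, but the share of all tested genes without such overlap was not counted. With either guide the changes were smaller and mixed: 7 of 10 were higher and 1 lower in KO_sg1, and 4 of 10 were higher and 1 lower in KO_sg4. In KO_sg1 16.9% of all tested genes were called higher and 21.9% lower, and in KO_sg4 these were 18% and 22%. The median log2 fold change of the 10 genes was 0.28 in KO_sg1 and 0.13 in KO_sg4, beside -0.02 and 0.00 over all tested genes. All 3 comparisons use the same WT libraries. Calls are at a Benjamini-Hochberg adjusted p below 0.05 in edgeR's quasi-likelihood test, and adjusted p-values below come from it. In bulk RNA, a change in the share of cells that express a gene and a change in RNA per cell cannot be told apart.

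**Figure D2:**
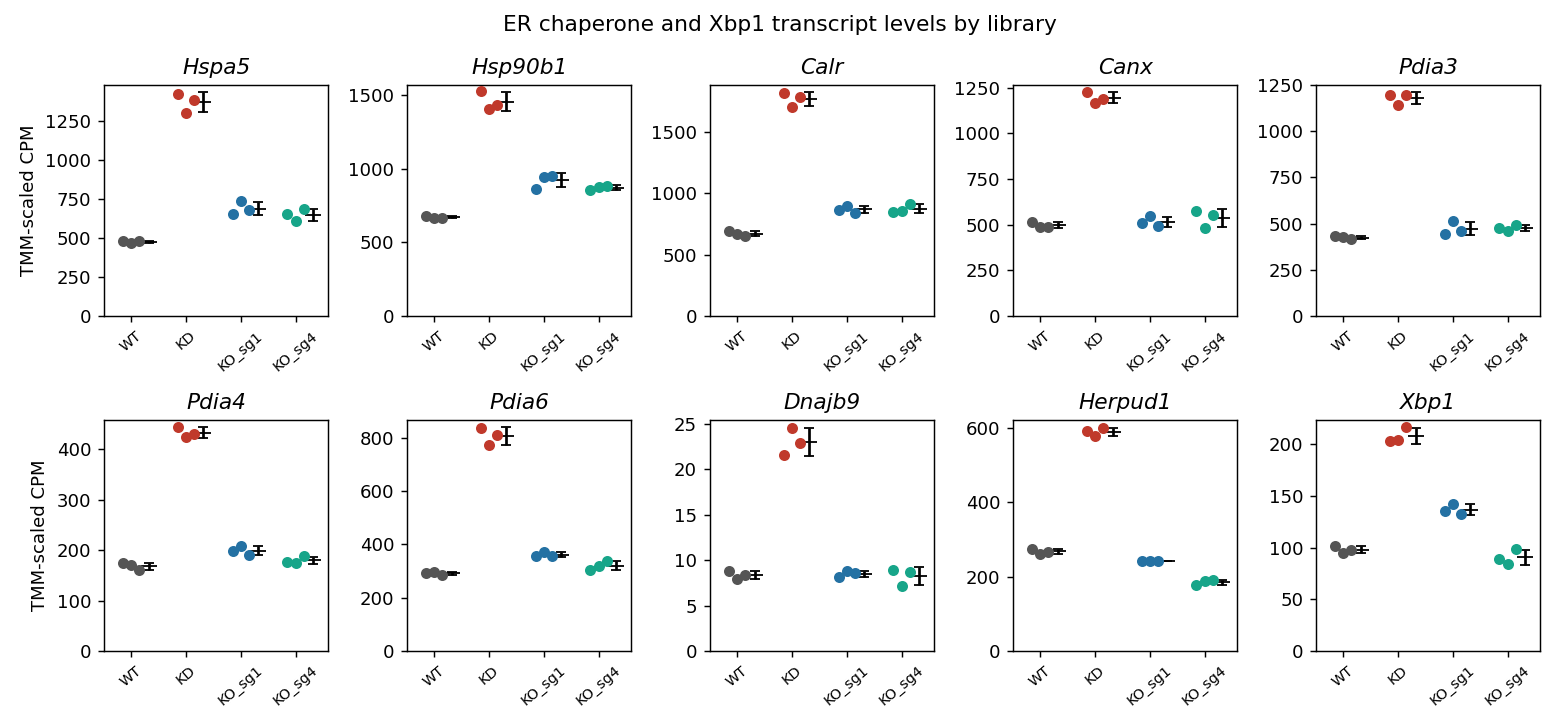
TMM-scaled CPM (y axis, from 0, one scale per gene) of the 10 genes in each library, by group on the x axis; points are libraries, and the black mark is the mean with its SD (n = 3). The 3 KD libraries lie above the other 9 for every gene. Both KO groups lie above WT for Hspa5, Hsp90b1 and Calr, and by less for Pdia3, Pdia4 and Pdia6.

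Of the ATP-driven chaperones, Hspa5 codes BiP, the HSP70 of the ER lumen, which also holds the sensors inactive. Its levels were 479, 466 and 481 CPM in WT, 654, 735 and 677 in KO_sg1, 656, 610 and 685 in KO_sg4, and 1424, 1303 and 1386 in KD. The KD libraries were highest, the WT libraries lowest and the KO groups overlapped each other in between. Hspa5 rose by 0.54 ± 0.06 on the log2 scale in KO_sg1 (SE; adjusted p = 9.908e-06), by 0.45 ± 0.06 in KO_sg4 (adjusted p = 4.256e-05) and by 1.53 ± 0.06 in KD (adjusted p = 7.207e-11). Hsp90b1 codes GRP94, the HSP90 of the ER, whose clients include Toll-like receptors and integrins. Its levels were 680.5, 667 and 664 CPM in WT, 865, 946 and 952 in KO_sg1, 855, 875 and 884 in KO_sg4, and 1524, 1406 and 1434 in KD. The order of the groups was that of Hspa5. Its log2 fold changes were 0.46 ± 0.05 in KO_sg1, 0.38 ± 0.05 in KO_sg4 and 1.12 ± 0.06 in KD, each called. Annotated transcripts overlap Hsp90b1 on both strands, so its counts may include reads shared with them.

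The lectin chaperones bind glycoproteins that carry a single glucose, calreticulin in the lumen and calnexin in the membrane. Calr was at 693, 667 and 651 CPM in WT, 865, 898 and 842 in KO_sg1, 844, 857 and 912 in KO_sg4, and 1810, 1699 and 1780 in KD. It rose with both guides, by 0.37 ± 0.05 in KO_sg1 (adjusted p = 9.198e-05) and 0.38 ± 0.05 in KO_sg4 (adjusted p = 7.056e-05), and by 1.39 ± 0.06 in KD; a processed copy, Calr-ps, could take a share of its reads. Canx was at 517, 486 and 491 CPM in WT, 507, 547 and 493 in KO_sg1, 577, 484 and 555 in KO_sg4, and 1228, 1168 and 1190 in KD. Both KO groups overlapped WT for Canx, and only KD stood apart. Its log2 fold change was 0.05 ± 0.07 in KO_sg1 (adjusted p = 0.5751), 0.11 ± 0.07 in KO_sg4 (adjusted p = 0.1979) and 1.26 ± 0.07 in KD (adjusted p = 7.626e-10). Without KO_sg4 replicate 2, the KO_sg4 value was 0.19 and was called (adjusted p = 0.02).

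The 3 disulfide isomerases differed in the KO groups. Pdia3 codes ERp57, which works with the lectin chaperones, and was at 431, 427 and 416 CPM in WT, 447, 515 and 460 in KO_sg1, 477, 459 and 496 in KO_sg4, and 1197, 1140 and 1197 in KD. Its KO libraries lay just above the WT libraries, and its calls were close to the threshold: 0.16 ± 0.06 in KO_sg1 (adjusted p = 0.04877) and 0.17 ± 0.06 in KO_sg4 (adjusted p = 0.03582). The KO_sg1 call was lost without any 1 of the WT libraries, KD replicates 1 or 3, or KO_sg1 replicates 2 or 3 (adjusted p up to 0.203). With library totals as the only scaling, the KO_sg1 change was 0.08 and not called (adjusted p = 0.427). In all, the KO_sg1 call was lost in 10 of 20 alternatives. The KO_sg4 call was lost without any 1 of the WT libraries or KO_sg4 replicate 3 (adjusted p up to 0.094), and in 7 of 20 alternatives in all. Pdia4 codes ERp72, an isomerase with several thioredoxin-like domains, and was at 174, 169 and 161 CPM in WT, 198, 208 and 190 in KO_sg1, 177, 174.5 and 188 in KO_sg4, and 444, 424 and 431 in KD. It rose by 0.24 ± 0.05 in KO_sg1 (adjusted p = 0.002636), a call lost with library totals as the only scaling (adjusted p = 0.0756), and its 0.10 ± 0.05 in KO_sg4 was not called (adjusted p = 0.1665). Pdia6 codes P5, which binds BiP, and was at 291, 296 and 285 CPM in WT, 354, 371 and 356 in KO_sg1, 303, 320 and 339 in KO_sg4, and 837, 770 and 809 in KD. Its KO_sg4 libraries lay between those of WT and KO_sg1 with no overlap. The log2 fold change of Pdia6 was 0.31 ± 0.05 in KO_sg1 (adjusted p = 0.0004578) and 0.14 ± 0.05 in KO_sg4, just short of a call (adjusted p = 0.05509). The KO_sg4 change of Pdia6 was called in 8 of 20 alternatives, with the lowest adjusted p at 0.00709 without KO_sg4 replicate 1. These were both DESeq2 settings, library totals, limma-voom, scaling on genes with a hydrophobic segment, and leaving out KD replicate 1, KD replicate 2 or KO_sg4 replicate 1. Over left-out libraries the number of the 10 genes called higher in KO_sg4 ran from 3 to 5. In KD the isomerases rose by 1.47 ± 0.06 (Pdia3), 1.37 ± 0.05 (Pdia4) and 1.47 ± 0.06 (Pdia6).

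Dnajb9 and Herpud1, both known targets of the unfolded protein response, did not follow the chaperones in the KO groups. Dnajb9 codes ERdj4, a BiP co-chaperone that represses IRE1, and was at 8.79, 7.95 and 8.37 CPM in WT, 8.16, 8.80 and 8.53 in KO_sg1, 8.92, 7.14 and 8.74 in KO_sg4, and 21.6, 24.6 and 22.9 in KD. WT and both KO groups overlapped fully, with log2 fold changes of 0.03 ± 0.10 and -0.01 ± 0.10 (adjusted p = 0.859 and 0.9607), and KD was higher by 1.46 ± 0.09. Herpud1 codes HERP, a membrane protein of the complex that returns misfolded proteins to the cytosol for degradation. It was at 274, 261 and 267 CPM in WT, 243, 241 and 243 in KO_sg1, 176, 187 and 190 in KO_sg4, and 592, 578 and 600 in KD. Here both KO groups lay below WT, with KO_sg4 the lower. Herpud1 fell by 0.54 on the log2 scale (SE 0.05) in KO_sg4 (adjusted p = 4.889e-07) and by 0.14 (SE 0.05) in KO_sg1 (adjusted p = 0.02654), and the second call was lost without WT replicate 1 or 3 or any 1 of the KO_sg1 libraries (adjusted p up to 0.112), and in 9 of 20 alternatives in all. An antisense transcript overlaps Herpud1, and the strand setting of the counting is not given in the sources used here.

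Xbp1 separated the guides. It was at 101, 95.2 and 97.4 CPM in WT, 135, 142 and 132 in KO_sg1, 89.1, 84.2 and 98.3 in KO_sg4, and 203, 204 and 217 in KD. The KO_sg1 libraries lay above all WT libraries, and the KO_sg4 libraries overlapped WT at its lower end. The log2 fold change was 0.48 ± 0.06 in KO_sg1 (adjusted p = 2.849e-05), -0.11 ± 0.06 in KO_sg4 (adjusted p = 0.1635) and 1.09 ± 0.06 in KD (adjusted p = 1.238e-09). Without KO_sg4 replicate 3 the KO_sg4 value was -0.17 and was called (adjusted p = 0.0432).

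**Figure D3:**
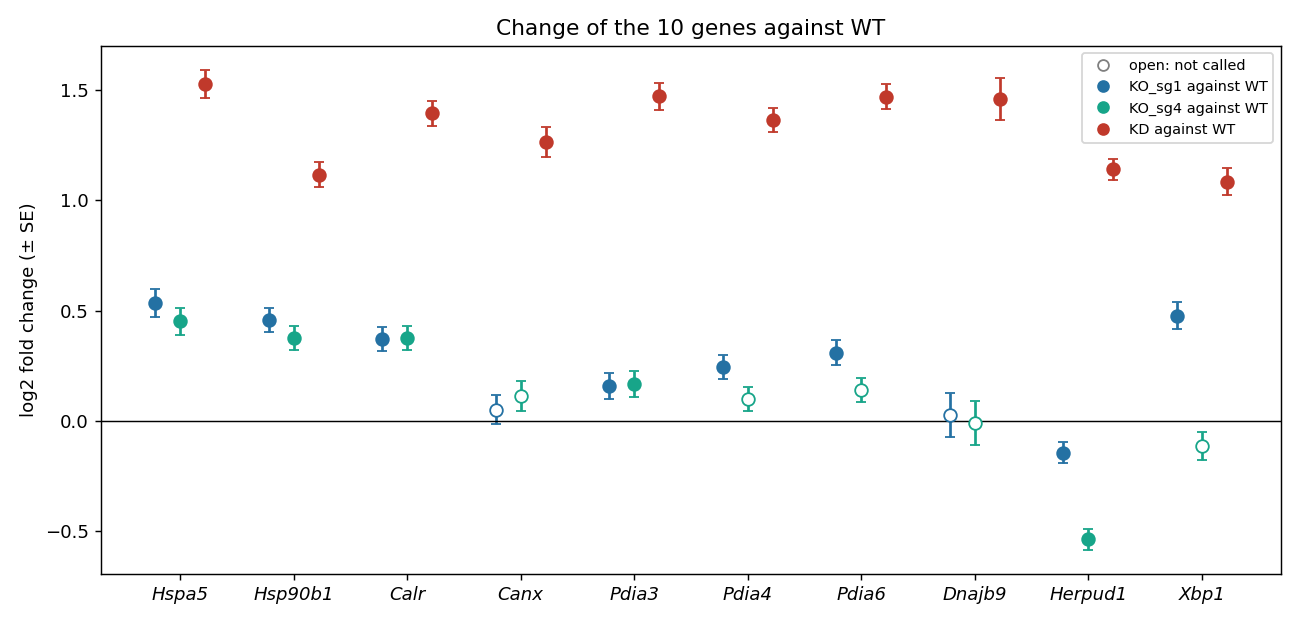
Log2 fold change against WT (y axis, bars are SE) of the 10 genes in KO_sg1, KO_sg4 and KD; filled points were called and open points were not. KD lies above 1 for all 10 genes, and Xbp1 is at 0.48 in KO_sg1 and -0.11 in KO_sg4.

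In the direct comparison of the guides, 3 of the 10 genes were lower in KO_sg4 than in KO_sg1 and none was higher, where 13.4% of all tested genes were called lower and 13.8% higher. Xbp1 differed by -0.59 ± 0.06 (adjusted p = 6.563e-06), Herpud1 by -0.39 ± 0.05 (adjusted p = 2.62e-05) and Pdia6 by -0.17 ± 0.05 (adjusted p = 0.0333). The libraries of the guides did not overlap for these 3 genes or for Pdia4, whose difference of -0.15 was not called. The share of all tested genes whose guide libraries did not overlap was not counted. With DESeq2 size factors (adjusted p = 0.0431), the DESeq2 Wald test (adjusted p = 0.0171) and without KO_sg4 replicate 3 (adjusted p = 0.042), Pdia4 was called lower as well. The Pdia6 call was lost without WT replicate 1 or 2, any 1 of the KO_sg1 libraries or KO_sg4 replicate 1 (adjusted p up to 0.0867) and with library totals as the only scaling (adjusted p = 0.438). It was also lost with only the compared groups fitted (adjusted p = 0.17), with no filter on low counts (adjusted p = 0.0596) and with the replicate block (adjusted p = 0.0679). For Hspa5, Hsp90b1, Calr, Canx, Pdia3 and Dnajb9 the libraries overlapped, and their log2 differences lay between -0.08 and 0.06.

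KD was higher than the mean of the KO groups for all 10 genes, with 42.9% of all tested genes called higher and 40.4% lower in that comparison. The log2 difference was smallest for Hsp90b1 at 0.70 ± 0.05 and largest for Herpud1 at 1.48 ± 0.04, the gene that was below WT in the KO groups. Dnajb9 at 1.45 ± 0.08 and Pdia3 at 1.31 ± 0.05 came next.

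The KD rise was shared far beyond ER chaperones, along a feature of the coded protein. A hydrophobic segment was counted where 19 residues in a row had a mean Kyte-Doolittle hydropathy of at least 1.6, the kind found in membrane proteins and many signal peptides; this split was chosen after values had been seen. Of 3794 tested genes that code such a segment, 66.3% were higher and 15.8% lower in KD, with a median log2 fold change of 0.84. Of 7377 genes with neither that nor a shorter hydrophobic start, 20.2% were higher and 55.9% lower, with a median of -0.34. In the KO groups the genes with a segment were higher in 14.7% (KO_sg1) and 17.2% (KO_sg4) of cases and lower in 28.4% and 29.5%. By this rule 9 of the 10 genes code a segment, Xbp1 among them in the 267-residue form of its principal transcript, and Herpud1 at 1.58 was just under the limit.

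**Figure D4:**
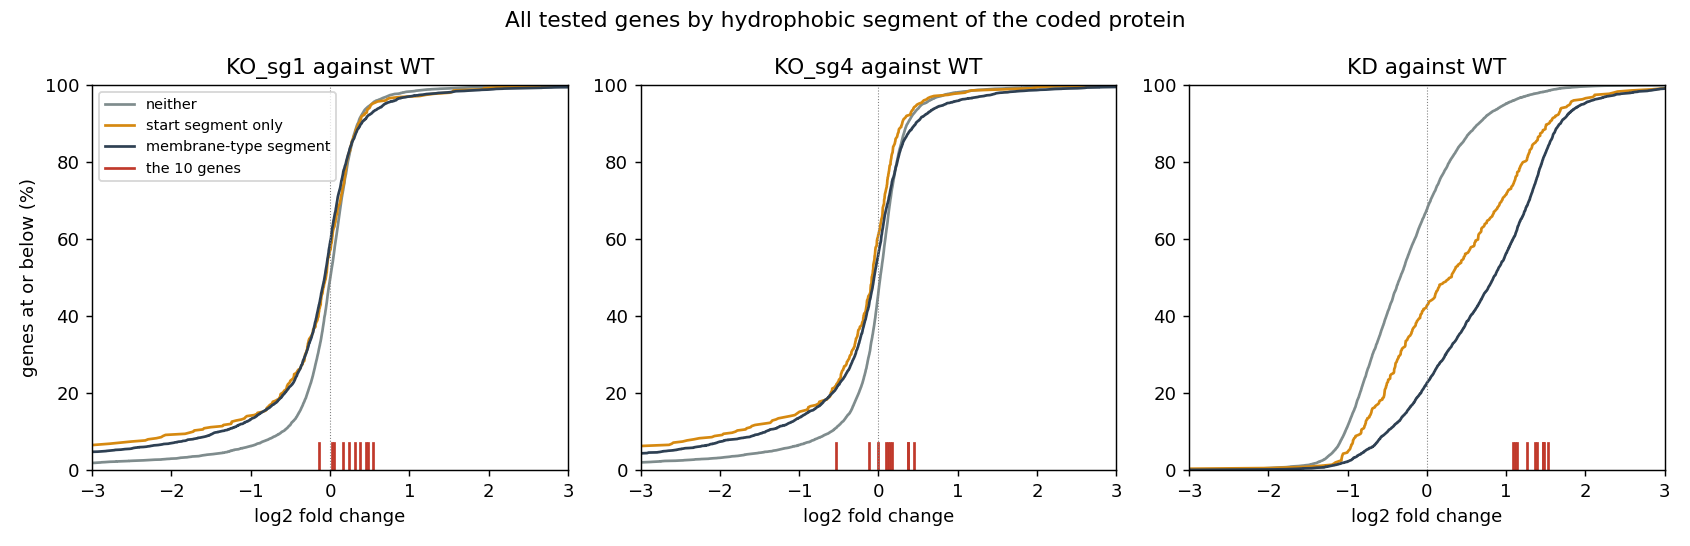
Cumulative share of tested genes (y axis, %) by log2 fold change against WT (x axis, shown from -3 to 3), split by the hydrophobic segment of the coded protein; red ticks are the 10 genes. In KD the curve of genes with a membrane-type segment, median 0.84, lies to the right of the others, and in the KO groups the medians of the 3 classes lie between -0.08 and 0.02.

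Against their class median, the 9 genes with a segment were still higher in KD, by 0.24 (Xbp1) to 0.69 (Hspa5) on the log2 scale. Herpud1 was higher by 1.48, but against the class with neither segment, whose median was -0.34. The genes with a segment had a median of 0.84, and the KD change of Herpud1 itself was 1.14. When libraries were scaled on the genes that code such a segment or a shorter hydrophobic start, an alternative chosen after seeing the data, the KD log2 fold changes ran from 0.29 for Xbp1 to 0.73 for Hspa5, and all 10 remained called higher. On that scale KD minus the KO mean was -0.16 for Hsp90b1 (adjusted p = 0.00703), the reverse of its direction above, and 0.05 for Xbp1, no longer called (adjusted p = 0.415). The median over the 10 genes in KD was 0.58 on that scale and 1.38 with all genes. The part of this wider shift in the rise of the 10 genes was not tested. On the same scale Hspa5 was 0.59 higher in KO_sg1 and 0.51 in KO_sg4.

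Most other listed genes of ER folding were higher in KD, where 37.2% of all tested genes and 66.3% of those coding a 19-residue segment were higher. In the KO groups the counts were mixed, against shares over all tested genes of 16.9% higher and 21.9% lower in KO_sg1 and 18% and 22% in KO_sg4. All 6 genes for the sensors and their proteases were higher in KD: Ern1, which codes IRE1, by 2.00 ± 0.14, Eif2ak3, which codes PERK, by 1.59 ± 0.08, Atf6b by 1.42 ± 0.06, Atf6 by 1.30 ± 0.07, and the Golgi proteases Mbtps2 by 1.29 ± 0.15 and Mbtps1 by 1.10 ± 0.04. Ern1 stayed scarce, at 9.25 CPM in KD and 2.33 in WT. In the KO groups Atf6 was lower, by -0.89 ± 0.07 in KO_sg1 and -1.09 ± 0.07 in KO_sg4, and Eif2ak3 was higher, by 0.25 ± 0.08 and 0.57 ± 0.08. Mbtps2 was lower in KO_sg1 by -0.69 ± 0.16.

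Of 17 tested BiP co-chaperones and other folding factors, all 17 were higher in KD, 6 were higher and 1 lower in KO_sg1, and 6 were higher and 3 lower in KO_sg4. Among them Dnajc1, a J-domain protein of the ER membrane, rose by 1.61 ± 0.06 in KD, Hyou1, an HSP110-type nucleotide exchange factor of BiP, by 1.599 ± 0.06, and Sil1, another exchange factor, by 1.48 ± 0.07. Hyou1 was also higher with both guides, by 0.33 ± 0.06 and 0.28 ± 0.06, while Sil1 in KO_sg4 was lower by -0.52 ± 0.07 and Fkbp11, a prolyl isomerase of secretory cells, by -2.53 ± 0.16. Named after their values were seen, Creld2 rose by 0.57 ± 0.07 in KO_sg1 and 0.38 ± 0.07 in KO_sg4, and Sdf2l1 by 0.53 ± 0.08 and 0.32 ± 0.08. Others, also named after their values were seen, did not share this pattern. Dnajc10 was lower by -0.47 ± 0.09 in KO_sg1. Manf was higher by 0.57 ± 0.07 in KO_sg1 but was not called in KO_sg4 (adjusted p = 0.08804). Syvn1, of the degradation list, was lower with both guides, by -0.20 in KO_sg1 and -0.21 in KO_sg4.

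Of 16 other disulfide isomerases and ER oxidases, 15 were higher in KD and none lower, 3 were higher and 4 lower in KO_sg1, and 2 were higher and 5 lower in KO_sg4. The KO counts are near the shares over all tested genes. Txndc12, a small thioredoxin-like protein, rose by 1.70 ± 0.07 in KD. Pdia2, Pdia5 and Qsox1 had larger fold changes at levels below 1.5 CPM in every group. Of 11 tested genes of the calnexin cycle, 9 were higher and 1 lower in KD, 2 were higher and 4 lower in KO_sg1, and 3 were higher and 3 lower in KO_sg4. The glucosidase II subunit genes Ganab and Prkcsh rose by 1.75 ± 0.07 and 1.59 ± 0.07 in KD, and the cargo receptor gene Lman1 by 1.68 ± 0.08. Clgn, the testis homologue of calnexin, was at 0.927 CPM in WT and 3.73 in KO_sg1.

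Of 21 genes of ER-associated degradation, 14 were higher and 7 lower in KD. The lectin gene Os9 rose by 1.66 ± 0.06, Faf2, an adaptor for the ATPase p97, by 1.605 ± 0.06, the ligase scaffold gene Sel1l by 1.55 ± 0.09 and the ligase gene March6 by 1.47 ± 0.10. Vcp, which codes p97 itself, fell by 1.29 (SE 0.05), and is named after its value was seen. Of the 16 with the 19-residue segment or a shorter hydrophobic start, 13 were higher and 3 lower, and of the 5 with neither, 1 was higher and 4 lower. In KO_sg1 4 were higher and 4 lower, near the shares over all tested genes, and in KO_sg4 2 were higher and 7 lower.

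Genes of the PERK and ATF4 branch did not rise with the chaperones. Of 15, 10 were lower and 3 higher in KD with a median log2 fold change of -0.62, and 14 were lower and none higher with either guide, with medians of -0.86 in KO_sg1 and -1.85 in KO_sg4. Over all tested genes 40.4% were lower in KD, 21.9% in KO_sg1 and 22% in KO_sg4. Of the 15, 13 code neither kind of hydrophobic segment, and of these 2 were higher and 10 lower in KD, where 55.9% of all genes of that class were lower with a median of -0.34. In KD against the mean of the KO groups, 11 of the 15 were higher and 1 lower, with a median of 0.72. Over all tested genes 42.9% were higher and 40.4% lower in that comparison. Nupr1, a stress-induced nuclear protein gene, was lower by -4.82 ± 0.12 in KO_sg4 and -1.65 ± 0.10 in KO_sg1. Atf3 was lower by -3.91 ± 0.10 in KO_sg4 and -3.11 ± 0.09 in KO_sg1, and the receptor gene Vldlr by -2.32 ± 0.12 and -1.88 ± 0.11. Cebpb was at 3.19 CPM in WT, 0.162 in KO_sg1 and 0.246 in KO_sg4. Of the 3 genes higher in KD, Vldlr rose by 1.46 ± 0.09 and Cebpb by 0.77 ± 0.15. Atf4 and Ddit3, named after their values were seen, had log2 fold changes in KD of -1.24 ± 0.07 and -0.22 ± 0.11, the second not called (adjusted p = 0.08748).

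**Figure D5:**
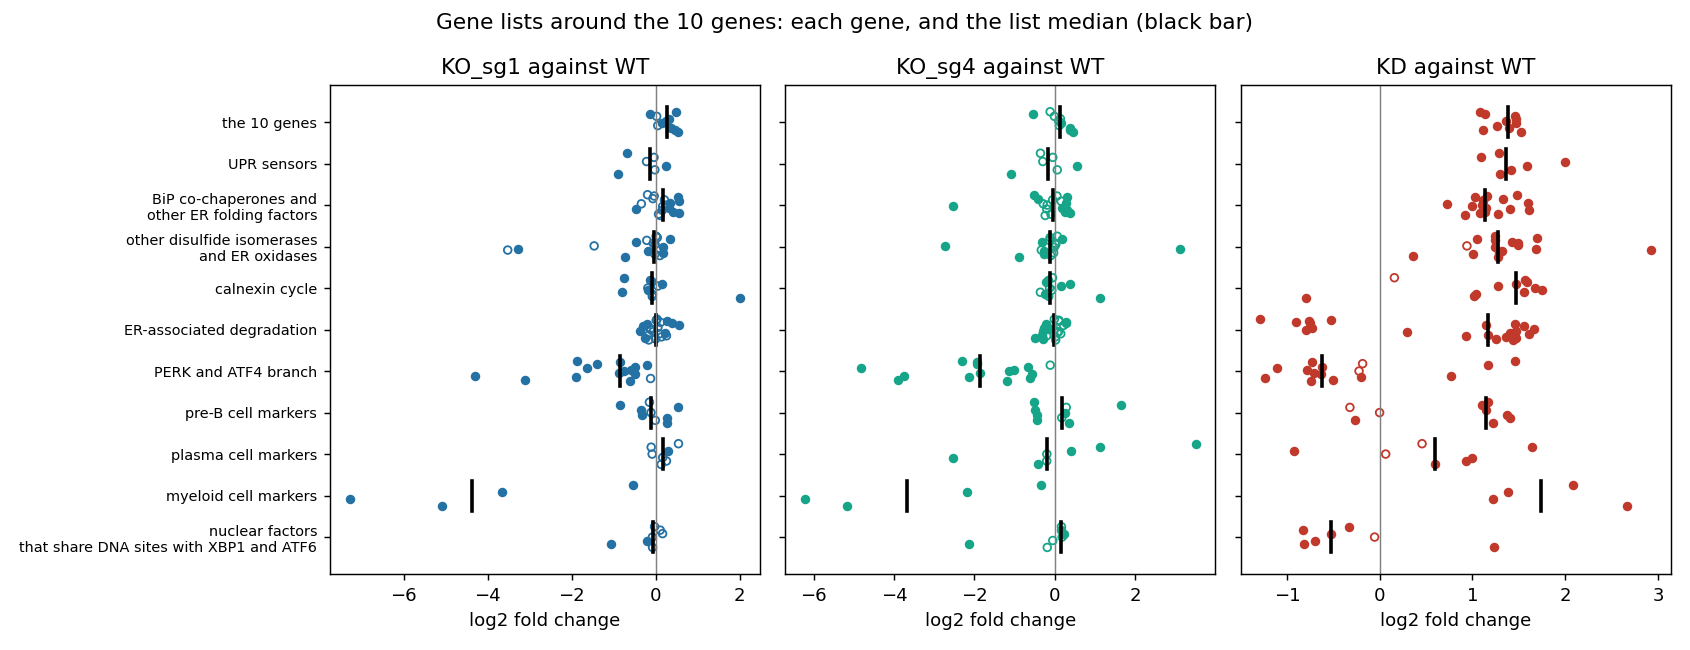
Log2 fold change against WT (x axis) of each tested gene, by gene list (rows), in KO_sg1, KO_sg4 and KD; filled points were called, open points were not, and the black bar is the list median. In KD the ER lists lie to the right, with medians of 1.14 to 1.47, and the PERK and ATF4 list has a median of -0.62.

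Markers of other cell states were read against the same shares over all tested genes. Of 7 tested plasma cell markers, 4 were higher and 1 lower in KD, 1 was higher in KO_sg1, and 3 were higher and 2 lower in KO_sg4. The KO_sg1 count is not above the 16.9% over all tested genes. The 9 listed markers summed to 478 to 512 CPM in WT and 729 to 774 in KD, with KO_sg1 at 526 to 559 and KO_sg4 at 353 to 429. Most of each sum was 1 gene, 2010001M09Rik, an older symbol of the plasma cell gene Mzb1, named after its values were seen. It averaged 454 CPM in WT, 688 in KD, 497 in KO_sg1 and 343 in KO_sg4, and 4 of the 9 markers averaged below 1 CPM in WT. The list holds Fkbp11 and Derl3, which are also in the ER lists. Prdm1, the defining plasma cell regulator, did not pass the filter and averaged at most 0.0270 CPM. The surface marker Sdc1 rose by 1.64 ± 0.10 in KD and by 1.13 ± 0.11 in KO_sg4. Slamf7, another surface marker, rose by 3.51 ± 0.30 in KO_sg4 from a low level, 0.307 CPM in WT and 3.51 CPM in KO_sg4. Derl3 rose by 0.93 ± 0.15 in KD, and Irf4, a plasma cell regulator named after its value was seen, fell by 0.92 (SE 0.11). Of 9 pre-B markers, 6 were higher and 1 lower in KD, 3 were higher and 3 lower in KO_sg1, and 3 were higher and 4 lower in KO_sg4. The receptor genes Cd79a and Cd79b rose by 1.41 ± 0.10 and 1.37 ± 0.07 in KD. Rag1, a recombinase gene, was lower by -0.86 ± 0.13 in KO_sg1 and higher by 1.65 ± 0.12 in KO_sg4 and 1.11 ± 0.12 in KD. All 4 tested myeloid markers were higher in KD and lower with both guides, with list sums of 27.4 to 28.4 CPM in WT and 86.9 to 89.9 in KD, with KO_sg1 at 5.18 to 6.93 and KO_sg4 at 7.33 to 8.49. Ctsg was at 0 in every group, and Mpo and Elane averaged at most 0.0242 CPM. The part of these marker changes in the results on the 10 genes was not tested.

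The promoter elements were set beside the changes. Outside the 10 genes, 39 genes had an ERSE or ERSE-II, of which 15 were tested. Of these 15, 9 were higher and 2 lower in KD (median log2 fold change 0.88), 5 were higher and 1 lower in KO_sg1 (median 0.15) and 5 were higher and 1 lower in KO_sg4 (median 0.10). Over all tested genes 37.2% were higher and 40.4% lower in KD, 16.9% and 21.9% in KO_sg1, and 18% and 22% in KO_sg4. Of tested genes that code a hydrophobic segment, 66.3% were higher and 15.8% lower in KD, with a median of 0.84, near that of the 15 genes. Creld2, Derl3, Dnajc3, Ero1lb and Syvn1 are among the 15, code such a segment and are also in the ER lists above. Whether the KD counts go with the element apart from this class was not tested. Of the 4 among the 10 genes with none of the 3 elements, Pdia3, Pdia4 and Xbp1 were called higher in KO_sg1, and Dnajb9 was not. Of the 6 with ERSE or ERSE-II, 4 were higher in KO_sg1, Canx was not called and Herpud1 was lower.

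Among 9296 tested genes with a mean of at least 5 CPM, the gene most like Hspa5 over the 12 libraries was Calr, with a root mean square difference of 0.0745 in centred log2 CPM. Lrp10, an LDL-receptor family gene, followed at 0.0820, then the cholesterol synthesis gene Dhcr7 at 0.0831, Spnb2, which codes a spectrin, at 0.0972, and the ectonucleotidase gene Entpd1 at 0.108. The genes most like Xbp1 were Slc35e4 at 0.103, Mycn at 0.115, Naip2 at 0.125, Lpcat4 at 0.132 and Tmem85 at 0.132. Mycn, a MYC family factor gene, averaged 74.7 CPM in WT, 140 in KD, 90.4 in KO_sg1 and 65.2 in KO_sg4. This order of groups is that of Xbp1 and of every gene listed as most like it. Since the genes were chosen by likeness over the same libraries, that order was close to fixed. These likenesses are descriptions and share the library scaling.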

How the data were processed

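The authors deposited 1 table of RSEM estimated counts per gene for the 12 libraries; per the submitters' processing notes the tools were Bowtie 1.0.1 and RSEM 1.2.12 with mm9. These deposited estimated counts, after rounding, were filtered with filterByExpr (minimum count 10), scaled by TMM and tested in 1 edgeR 4.0.16 quasi-likelihood model of 4 group means (R 4.3.3), with Benjamini-Hochberg adjustment over 12335 genes. The test was also run on simulated data. Values after ± are SDs for CPM and SEs for log2 fold changes. Library totals, given in the text, set the precision; a count of 0 allows up to 0.0833 to 0.147 CPM (3 counts), which covers counting error only. DESeq2 1.42.0 and limma 3.58.1 were alternatives.

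Context lists held 124 symbols, 122 of them in the table. From each, at most 4 called genes with the largest change against WT, all sensor genes and the 5 genes most like Hspa5 and Xbp1 were named; exceptions are marked, and 1 gene that the rule names is not reported here. The 10 genes, the lists and these rules were chosen with earlier results of these data known. Promoters are RefSeq's (GRCm38.p6, 32851 windows, all 10 genes matched); coded proteins and lengths are from GENCODE, with a protein for 93.4% of tested genes. Same-numbered libraries did not deviate together (correlations -0.238 to 0.101 over 18 pairs), so numbers were not used as a block. Replicates differed beyond sampling noise (chi-square per degree of freedom 3.36 to 61.8).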

Additional observations from a re-analysis of the deposited data

Results flagged for a closer look

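Among the 10 genes, 3 differed between the guides in the direct test. Over all tested genes 13.4% were called lower and 13.8% higher in KO_sg4 than in KO_sg1. Xbp1 was lower in KO_sg4 than in KO_sg1 by a log2 difference of -0.59 (adjusted p = 6.56e-06, edgeR), with 136 CPM in KO_sg1 and 90.5 in KO_sg4. Herpud1 was lower by -0.39 (adjusted p = 2.62e-05) and Pdia6 by -0.17 (adjusted p = 0.0333). In all 3 cases each of the 3 KO_sg4 libraries lay below each of the 3 KO_sg1 libraries, a pattern whose share over all tested genes was not counted. Phf6 mRNA was low in KO_sg1 and at the WT level in KO_sg4.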

How the results depend on the processing

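Of 1000 values of the 10 genes under 20 alternatives, 923 kept their direction and side of the threshold, and all 10 KD calls against WT held in every one. The log2 changes that reversed, all uncalled unless stated, were these. With library totals only, Canx was -0.029 and Dnajb9 -0.054 in KO_sg1, Dnajb9 0.030 in KO_sg4, and Hspa5 0.032, Hsp90b1 0.034 and Dnajb9 0.083 between guides. With DESeq2 size factors and the DESeq2 Wald test, Dnajb9 was 0.015 and 0.019 in KO_sg4, and between guides Calr was -0.015 and -0.015 and Pdia3 -0.0079 and -0.0080. Scaled on genes coding a hydrophobic segment (chosen after seeing the data), Dnajb9 was 0.053 in KO_sg4, and Hsp90b1 was -0.16 in KD against the KO mean, which was called. That scaling shifted the median of all genes in KD against WT to -0.81, and library totals shifted it to 0.21. Leaving out 1 library gave ranges of -0.012 to 0.065 (Dnajb9, KO_sg1), -0.060 to 0.080 (Dnajb9, KO_sg4), and between guides -0.030 to 0.029 (Calr), -0.029 to 0.075 (Pdia3) and -0.095 to 0.052 (Dnajb9).

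The count of the 10 genes lower in KO_sg1 (1, Herpud1) was 0 with DESeq2 size factors, with no filter, with the replicate block and on the hydrophobic-segment scale, and 0 to 1 over left-out libraries. The count lower in KO_sg4 was 1 to 2 over left-out libraries, and the count higher there was 7 on the hydrophobic-segment scale, on which 1 was lower in KD against the KO mean. All genes called between guides numbered 3359, 1595 when only the groups compared were fitted, and 2280 to 5329 over left-out libraries, highest without KO_sg4 replicate 2. Calls higher among all calls were 43.5% in KO_sg1, 30% with library totals and 55.1% on the hydrophobic-segment scale; in KD they were 47.9%, 59.7% and 18.3%. In KO_sg4 they were 44.9%, and 57.6% on the hydrophobic-segment scale; between guides 50.6%, and 72.9% with library totals; and in KD against the KO mean 51.5%, 62.7% and 22.9%. With the replicate block, 6 and 3 of the 10 genes were higher in KO_sg1 and KO_sg4, Pdia3 being lost in both (adjusted p = 0.0896 and 0.0702), and 2 were lower between guides, Pdia6 being lost. The cause was not tested in any of these cases.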

Other observations

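Of 7 tested genes for nuclear factors that share DNA sites with XBP1 and ATF6, 5 were lower and 1 higher in KD, 2 were lower in KO_sg1, and 2 were higher and 1 lower in KO_sg4. Over all tested genes 40.4% were lower and 37.2% higher in KD, 21.9% and 16.9% in KO_sg1, and 22% and 18% in KO_sg4. Of the 7, 4 code neither kind of hydrophobic segment, and of these 3 were lower and 0 higher in KD. Of all tested genes of that class 55.9% were lower in KD. Nfyc, a subunit of the factor NF-Y that binds CCAAT, was lower in KD by -0.83 ± 0.05 on the log2 scale, and Gtf2i by -0.70 ± 0.05. Creb3, a membrane-bound relative of ATF6, was higher by 1.23 ± 0.09, and Creb3l1, another, was at 2.25 CPM in WT and 0.527 in KO_sg4.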
